A study of Mus musculus with 12 samples.

Results

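The interferon response genes are 51 genes of the mouse that are known to be induced when a cell senses interferon, followed here in bone marrow progenitors of 4 genotypes. They were taken by name, as the rows of the count table whose gene symbol is on a list that was drawn up with earlier results of these data known. All 51 were found among the 55450 rows, and 50 of them were among the 14346 genes with enough counts to test. The exception, Ifit3, had at most 11 counts in any library.

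The cells were donor-derived progenitors (lineage-negative, bearing the receptor Kit), sorted from the marrow of mice that had received competitive transplants, in which donor and competitor marrow repopulate 1 recipient. Each of the 4 genotypes had 3 libraries of total RNA: wild type (WT), Tet2 knockout (Tet2KO), Id1 knockout (Id1KO) and knockout of both genes (dKO). TET2 oxidizes methylated cytosine in DNA and its loss lets blood stem cells expand, and ID1 is a partner that keeps certain transcription factors off DNA. The comparisons ask how progenitors that lack Tet2 differ from wild type, and what a further loss of Id1 changes. Alleles, strain, age and the number of animals behind a library are not given in the sources used here. All libraries of a genotype carry 1 sample number in their titles, so p-values measure only the spread between these libraries, which may be technical.

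Interferons act through receptors that switch on the kinases JAK1 and TYK2 or JAK2, which phosphorylate STAT proteins. Type I interferon assembles a complex that holds STAT2 and IRF9 and binds the interferon-stimulated response element, and interferon gamma acts through gamma-activated sites. The genes so induced block viral entry, sense and degrade foreign nucleic acid, tag proteins with ISG15, or, as the guanylate-binding and immunity-related GTPases, attack the membranes around microbes inside the cell. Blood stem and progenitor cells express a part of this set without infection.

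The sequences at the starts of these genes carry the elements by which the set is known. The core GAAANNGAA of the interferon-stimulated response element was searched on both strands from 250 bases before to 50 bases after each RefSeq start (GRCm38.p6), a window of 300 bases. A promoter was listed for 40 of the 51 members, with 49 starts in all. At least 1 core lay in 25 of those 40 genes (62.5%), against 9.76% of all 27025 genes with a listed promoter. With a further A after the core the share was 55% against 3.99%. The gamma-activated site TTCNNNGAA lay in 13 of the 40 (32.5%), against 9.55% of all genes. The 2 motifs can overlap each other. A match is a description of the letters and not a binding site.

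The following 30-base windows show the cores of members that return below, read 5′ to 3′ along the strand of the gene, with each core in capitals. They show that cores often stand in tandem and face either way.
Isg15: cgtagGAAAAGGAAACCGAAACAGAAaata
Oas1a: cttctcggGAAATGGAAACTGAAaatctac
Gbp2: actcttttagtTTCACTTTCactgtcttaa
Gbp3: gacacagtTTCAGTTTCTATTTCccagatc
Gbp5: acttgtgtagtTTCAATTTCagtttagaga
Igtp: ttctaggaactGAAACTGAAagctgttcgg
Irgm2: ttccaggaactGAAACTGAAagctgttcgg
Irgm1: tgtttcaaGAAATAGAAACCGAAactgatt
Ifitm3: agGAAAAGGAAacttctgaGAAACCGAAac
Trim25: cgcccctcctgTTCAGTTTCgattccttcc
Their positions on GRCm38.p6 were chr4:156200872-156200901 (minus strand) for Isg15, chr5:120907524-120907553 (minus) for Oas1a, chr3:142620594-142620623 (plus) for Gbp2, chr3:142559992-142560021 (plus) for Gbp3, chr3:142496759-142496788 (plus) for Gbp5, chr11:58199511-58199540 (plus) for Igtp, chr11:58214902-58214931 (plus) for Irgm2, chr11:48871429-48871458 (minus) for Irgm1, chr7:141010715-141010744 (minus) for Ifitm3 and chr11:88999383-88999412 (plus) for Trim25. Isg15 held 3 overlapping cores, beginning 78 bases before its start. The neighbours Igtp and Irgm2 each held 1 core in similar surroundings. In Ifitm3 the cores lay within the transcribed part, from 2 bases after the RefSeq start. The annotation GENCODE M21 begins Gbp2, Gbp5, Irgm1, Irgm2 and Trim25 further upstream, so that their cores too lie within the annotated gene.

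Longer stretches are shown for Gbp5, a member with clear differences between genotypes, and for Ifitm1, the member with the largest ones. For Gbp5 the 216 bases chr3:142496684-142496899 (plus strand) run from 250 to 35 bases before the start and hold 1 response element core and 2 gamma-activated site matches, in capitals. For Ifitm1 the 202 bases chr7:140967826-140968027 (plus strand), from 250 to 49 bases before the start, held neither motif, nor did the rest of its window. The annotation GENCODE M21 begins both genes further upstream, at base 140967221 for Ifitm1 and 142493978 for Gbp5. The bases before those starts were not searched.
Gbp5: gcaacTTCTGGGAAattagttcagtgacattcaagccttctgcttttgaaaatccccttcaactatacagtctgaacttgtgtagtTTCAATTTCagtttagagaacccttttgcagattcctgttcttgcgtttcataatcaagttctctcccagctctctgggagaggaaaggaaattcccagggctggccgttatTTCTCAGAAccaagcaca
Ifitm1: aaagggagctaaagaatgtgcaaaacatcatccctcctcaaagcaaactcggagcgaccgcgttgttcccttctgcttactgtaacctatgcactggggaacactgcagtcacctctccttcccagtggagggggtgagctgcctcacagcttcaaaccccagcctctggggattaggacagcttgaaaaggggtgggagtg

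**Figure D1:**
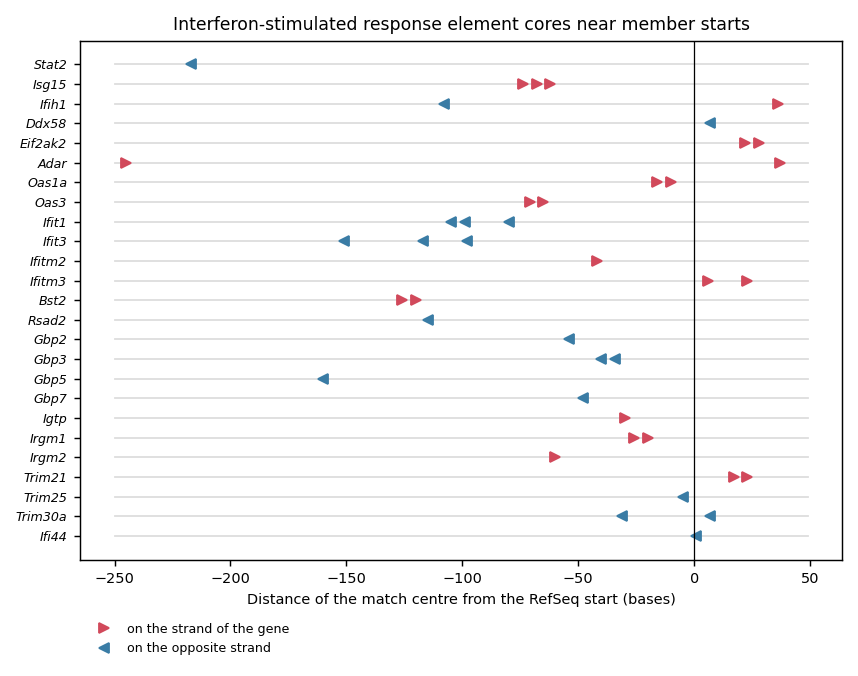
Map of the response element core GAAANNGAA around the RefSeq starts of the 25 members that hold it, with the distance from the start in bases on the x axis and 1 member per line; red triangles are matches on the strand of the gene and blue triangles matches on the opposite strand. Members with 2 or more listed starts have their matches drawn on 1 line, and pairs of cores a few bases apart are seen in members such as Irgm1, Oas1a and Gbp3.

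The libraries held between 15706407 and 19959183 estimated counts. Levels are CPM, counts scaled to library size after TMM scaling, and mean ± SD is over the 3 libraries of a genotype. The targeted genes went against their labels at the level of the whole gene. Tet2 averaged 99.3 CPM (WT), 129.9 (Tet2KO), 92 (Id1KO) and 118 (dKO), and Id1 in that order 1.47, 3.86, 3.96 and 3.93. A count over a whole gene does not show whether a deleted part is missing, so genotype names below mean the libraries labelled so, and every direction rests on those labels. The progenitor markers Kit, Cd34, Mpo, Gata2, Myb and Cebpa summed to at least 9649 CPM in each library, and those of T and NK cells to at most 1.96 CPM.

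The interferons themselves were not seen. Of 10 interferon genes looked for (Ifnb1, Ifna1, Ifna2, Ifna4, Ifna5, Ifnk, Ifne, Ifng, Ifnl2 and Ifnl3), 9 had 0 counts in all 12 libraries and Ifng had at most 1 count in a library. A count of 0 allows up to 3 counts, or 0.15 to 0.191 CPM depending on the library, for counting error only.

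The 51 members summed to 1656 to 1671 CPM in the WT libraries, 1745 to 1773 in those of Tet2KO, 1592 to 1604 in those of Id1KO and 1740.0 to 1749.6 in those of dKO. Id1KO libraries were lowest and did not overlap with those of the other genotypes, and Tet2KO and dKO libraries were highest. Per kb of exon the most abundant members were Ifitm2 with 253 CPM per kb, Ifitm3 with 80.8 and Bst2 with 39.4, all of them membrane proteins. At the other end, 12 members had a mean under 5 CPM in all 4 genotypes, among them Isg15, Usp18, Ifit1, Mx1, Mx2 and Rsad2. Of the 50 tested members, 43 stayed under 1.5-fold in all 5 pairwise comparisons, a share not computed for all genes. Members called at over 1.5-fold numbered 5, 1 and 4 in Tet2KO, Id1KO and dKO against WT (all genes 5.64%, 1.7% and 4.48%). In dKO against Tet2KO and Id1KO they numbered 1 and 3 (all genes 2.91% and 4.08%). The plot of all members by library shows where the larger differences lie.

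**Figure D2:**
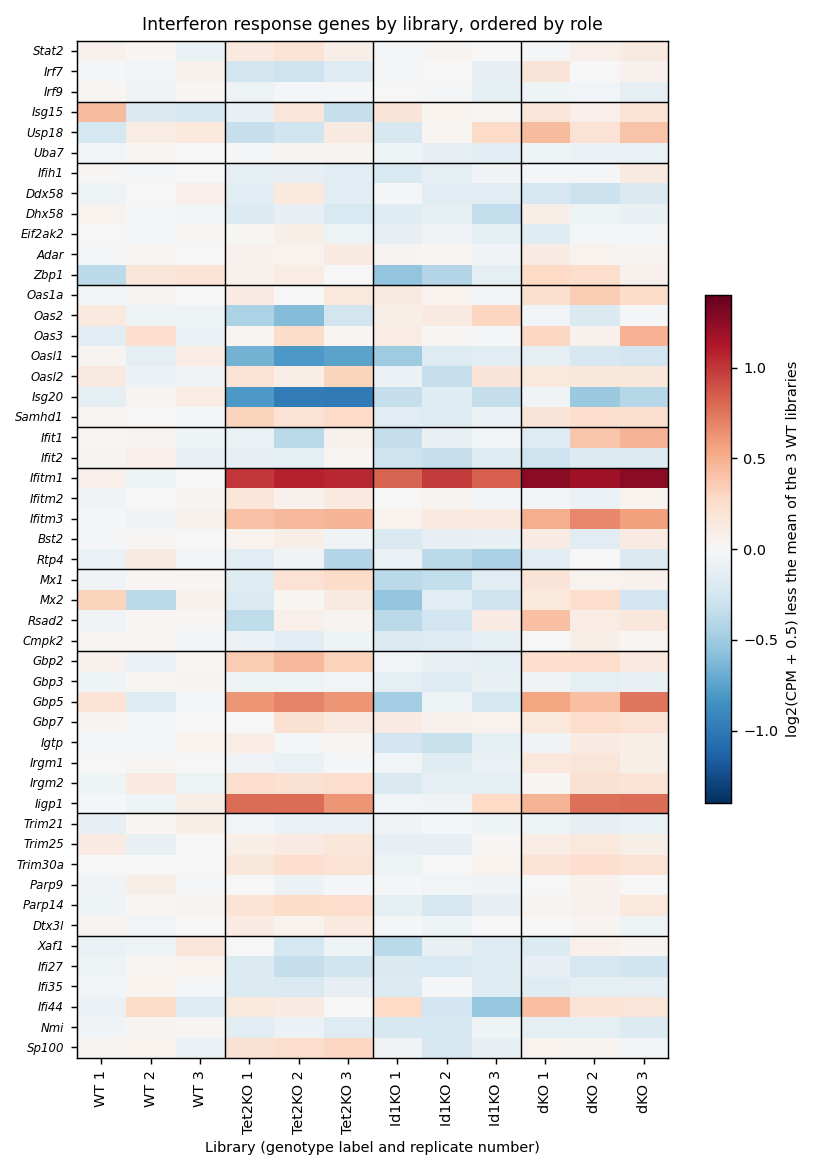
Level of the 50 tested members (lines, in the order of their roles) in the 12 libraries (columns), as log2(CPM + 0.5) less the mean of the 3 WT libraries, so that red is higher and blue lower than WT. Ifitm1 is red in the 9 libraries of the other 3 genotypes, Isg20 and Oasl1 are darkest blue in Tet2KO, and Gbp5 and Iigp1 are red in Tet2KO and dKO.

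Members that passed the test were mostly higher where the Tet2 knockout label was present. In Tet2KO against WT, 12 members rose and 7 fell (38% of 50, against 32.8% of all genes tested). Higher calls made up 24% of members against 16.6% of all genes, and lower calls 14% against 16.2%. Without Tet2KO replicate 1 the share called was 26% of members against 27.8% of all genes. With the counts of similar genes added (at least 95% identity over at least 100 bp) it was 32% against 32.7%. In dKO against Id1KO, which shares no library with the first comparison, 18 members rose and none fell (36%, against 19.3% of all genes, with 10.6% higher and 8.7% lower). The median log2 fold change of the members was 0.01 in the first and 0.18 in the second, and that of all genes was within 0.01 of 0 in both. Members higher in both comparisons were Samhd1, Ifitm1, Ifitm3, Gbp2, Gbp5, Irgm2, Iigp1, Trim30a, Parp14 and Sp100, which is 83.3% of the first list and 55.6% of the second, while for all genes the shares were 37.5% and 58.9% (6.21% of genes were higher in both).

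In Id1KO most members that passed the test were lower than in WT. In Id1KO against WT, 9 members fell and 1, Ifitm1, rose (20%, against 15% of all genes, of which 7.77% were lower and 7.26% higher), and the median was -0.12. Id1KO had the lowest of the 4 genotype means in 29 of the 50 members (58%) against 26.6% of all genes, and the highest in 1, which was 2% against 26.5%. With DESeq2 the share was 8% of members against 11.2% of all genes with an adjusted p, at a threshold of 0.01 it was 4% against 7.56%, and without WT replicate 2, WT replicate 3 or Id1KO replicate 2 it was 10% against 11.4%, 10.6% and 12.3%. Against a 1.2-fold change (glmTreat) 1 member, Ifitm1, was called (2%, against 0.976% of all genes), and it was higher. In dKO against Tet2KO, 10 members rose and 5 fell (30%, against 26.4% of all genes), with a median of 0.02. There DESeq2 called 14% of members against 21.2% of all genes with an adjusted p, a threshold of 0.01 called 12% against 15.9%, and leaving out dKO replicate 3 gave 18% against 20.7%. In neither of these comparisons, nor in Tet2KO against WT, is the members' share above that of all genes under all settings. In dKO against WT, 10 rose and 4 fell (28%, against 19.2% of all genes, of which 10.2% were higher and 8.97% lower), with a median of 0.05. Libraries of the 2 genotypes compared did not overlap for 25 members in Tet2KO against WT (50%, against 46% of all genes) and for 22 in Id1KO against WT (44% against 32.7%). They did not overlap for 23 when dKO was set against WT (46% against 33.1%), 23 against Tet2KO (46% against 39.9%) and 24 against Id1KO (48% against 33.2%). No pairwise comparison called 17 of the 50 members, among them Stat2, Irf9, Isg15, Eif2ak2, Adar, Ifit1, Bst2, Mx2, Rsad2 and Xaf1. The share of all genes called in none was not computed.

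**Figure D3:**
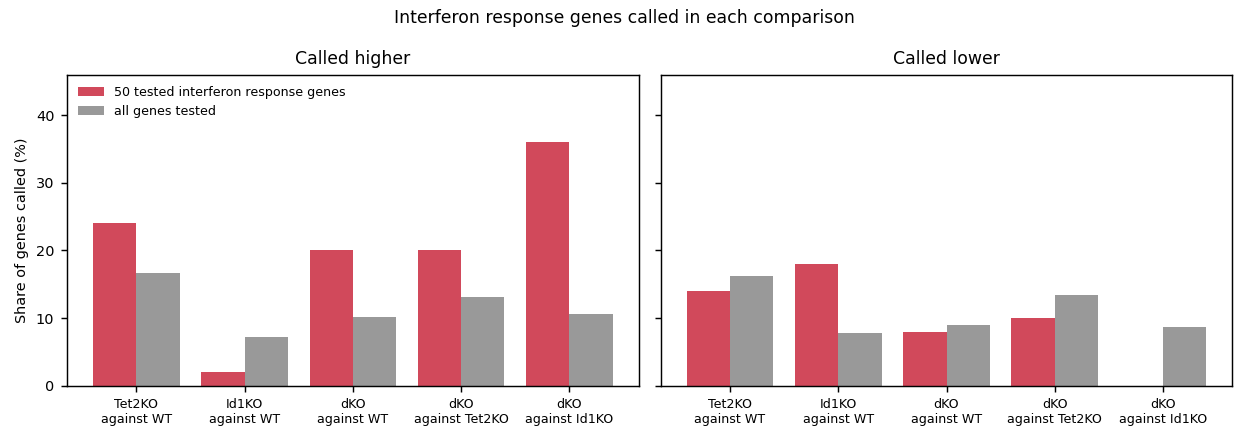
Share of the 50 tested members (red) and of all 14346 tested genes (grey) called at an edgeR adjusted p under 0.05, in percent, for the 5 pairwise comparisons, with higher calls on the left and lower calls on the right. The members' share stands furthest above that of all genes for higher calls in dKO against Id1KO (36% against 10.6%), where no member was called lower.

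The 3 comparisons with WT share the WT libraries, and the 3 comparisons of dKO share the dKO libraries. Of the members called, 12 of 19 in Tet2KO against WT and 12 of 18 in dKO against Id1KO passed in each of the 12 leave-one-out fits, which left out 1 library each, as did 2 of 10 in Id1KO against WT (Ifit2 and Ifitm1), 9 of 14 in dKO against WT and 6 of 15 in dKO against Tet2KO. The like share of all called genes was not computed, so whether members kept their calls more or less often is not known. When the libraries of a genotype were summed to 1 and additive effects of both labels were fitted with edgeR, 2 members, Ifitm3 and Gbp5, passed for the Tet2 label (4%, against 1.62% of all genes). None passed for the Id1 label, where 4 had an unadjusted p under 0.05 and 7 of all genes (0.0488%) passed.

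Of the 3 signal transducers, Irf7 was called and Stat2 and Irf9 were not. STAT2 and IRF9 are parts of the type I complex. Stat2 means ran from 23.4 CPM in WT to 25.7 in Tet2KO, and Irf9 means from 56.3 in dKO to 59.3 in WT, with no call for either. IRF7, the factor that amplifies interferon production, stood at 8.40, 8.25 and 8.86 CPM in the WT libraries, 7.05, 6.85 and 7.43 in those of Tet2KO, 8.40, 8.53 and 7.81 in those of Id1KO and 9.70, 8.44 and 8.86 in those of dKO. The Tet2KO libraries were lowest and apart from all others, with a log2 fold change against WT of -0.26 ± 0.09 (adjusted p = 0.0378), and dKO against Tet2KO gave 0.34 ± 0.09 (adjusted p = 0.0106). The first call was lost in 6 of 12 leave-one-out fits, with an adjusted p up to 0.13 without WT replicate 3, and the second in 1 of 12 leave-one-out fits, with an adjusted p up to 0.0594 without dKO replicate 1.

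Of the 3 genes of ISG15 conjugation, none was called in Tet2KO against WT or in dKO against Id1KO, where 32.8% and 19.3% of all genes were. Isg15, the ubiquitin-like tag, had means of 1.64 to 1.98 CPM and passed no test, with WT libraries at 2.54, 1.44 and 1.4 that spread more than the genotypes differed. USP18, which removes ISG15 and damps the receptor, stood at 2.80, 3.71 and 3.84 CPM in the WT libraries, 2.63, 2.74 and 3.77 in those of Tet2KO, 2.86, 3.49 and 4.24 in those of Id1KO and 4.82, 4.01 and 4.67 in those of dKO. Usp18 passed in dKO against Tet2KO alone (0.55 ± 0.18, adjusted p = 0.0253), lost in 4 of 12 leave-one-out fits, with an adjusted p up to 0.105 without Tet2KO replicate 1. Uba7, the activating enzyme of the pathway, stood at 77.3, 80.8 and 79.9 CPM in the WT libraries, 77.9, 81.3 and 81.7 in those of Tet2KO, 76, 73.5 and 71.6 in those of Id1KO and 75.8, 74.8 and 74.4 in those of dKO. Its fall was -0.11 ± 0.03 (adjusted p = 0.0406) in Id1KO against WT and -0.10 ± 0.04 (adjusted p = 0.0424) in dKO against Tet2KO, with calls lost in 8 and 5 of 12 leave-one-out fits.

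Among the 6 sensors of RNA and nucleic acid structure, 1 fell in Tet2KO against WT (16.7%, against 32.8% of all genes). In dKO against Id1KO 2 rose (33.3% against 19.3%). MDA5, encoded by Ifih1 and a sensor of long double-stranded RNA, stood at 37.9, 37 and 37.6 CPM in the WT libraries, 34, 34.5 and 33.6 in those of Tet2KO, 32.2, 34.1 and 36.3 in those of Id1KO and 36.8, 37.1 and 40.9 in those of dKO. Its levels were lower with either label alone than in WT or with both labels. The fall in Tet2KO against WT was -0.14 ± 0.05 (adjusted p = 0.0454), lost in 7 of 12 leave-one-out fits, with an adjusted p up to 0.145 without Tet2KO replicate 3. With libraries summed, the 1 Tet2 effect fitted over both comparisons of that label was 0.0151. The rise was 0.17 ± 0.05 (adjusted p = 0.0231) in dKO against Tet2KO and 0.16 ± 0.05 (adjusted p = 0.034) in dKO against Id1KO, each lost in 3 of 12 leave-one-out fits. Dhx58, the regulator LGP2 of the same family, stood at 16.3, 15.5 and 15.2 CPM in the WT libraries, 13.7, 14.5 and 13.4 in those of Tet2KO, 13.9, 14.2 and 12.3 in those of Id1KO and 16.5, 14.9 and 14.5 in those of dKO. Its fall in Id1KO against WT (-0.22 ± 0.07, adjusted p = 0.0495) was lost in 10 of 12 leave-one-out fits, with an adjusted p up to 0.232 without Id1KO replicate 3. Ddx58, which encodes RIG-I, stood at 17.8, 18.6 and 19.7 CPM in the WT libraries, 16.7, 20.7 and 16.8 in those of Tet2KO, 18.3, 16.7 and 16.8 in those of Id1KO and 15.8, 15 and 16.2 in those of dKO, with dKO libraries below all WT libraries (-0.25 ± 0.08, adjusted p = 0.0296) and the call lost in 5 of 12 leave-one-out fits, with an adjusted p up to 0.12 without WT replicate 3. With the counts of similar genes added (at least 95% identity over at least 100 bp), that value was 0.0230. An unplanned setting of at least 300 bp did not turn it. Eif2ak2 (PKR, which halts translation) and Adar (which edits double-stranded RNA) passed no test. ZBP1, a sensor that can start cell death, was low, at 1.19, 1.96 and 2 CPM in the WT libraries, 1.78, 1.85 and 1.67 in those of Tet2KO, 0.988, 1.14 and 1.49 in those of Id1KO and 2.16, 2.10 and 1.77 in those of dKO. The difference between dKO and Id1KO was 0.73 ± 0.23 (adjusted p = 0.0305), lost in 4 of 12 leave-one-out fits, with an adjusted p up to 0.118 without Id1KO replicate 1.

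The nucleases and oligoadenylate synthetases went in both directions. The 2 members that fell most in Tet2KO belong here, Isg20 and Oasl1. ISG20, an exonuclease of RNA, stood at 13.2, 15 and 15.7 CPM in the WT libraries, 8.15, 7.15 and 7.11 in those of Tet2KO, 11.5, 12.9 and 11.5 in those of Id1KO and 14.1, 10.1 and 11 in those of dKO. All Tet2KO libraries lay below those of the other genotypes. The log2 fold change was -0.97 ± 0.11 (adjusted p = 1.57e-06) in Tet2KO against WT, 1.96-fold lower, and 0.65 ± 0.12 (adjusted p = 0.000394) in dKO against Tet2KO. In dKO against WT it was -0.32 ± 0.11 (adjusted p = 0.0371) with overlapping libraries, lost in 4 of 12 leave-one-out fits, with an adjusted p up to 0.19 without dKO replicate 2. OASL1, which holds back translation of Irf7, stood at 11.8, 10.4 and 12.3 CPM in the WT libraries, 7.05, 6.37 and 6.62 in those of Tet2KO, 7.96, 10 and 10.3 in those of Id1KO and 10.4, 9.76 and 9.45 in those of dKO. Again the Tet2KO libraries were lowest without overlap, with -0.78 ± 0.10 (adjusted p = 9.4e-06) against WT and 0.56 ± 0.11 (adjusted p = 0.000719) for dKO against Tet2KO. In Id1KO against WT the values were -0.29 ± 0.10 (adjusted p = 0.066) for Isg20 and -0.28 ± 0.10 (adjusted p = 0.0571) for Oasl1, not passing the test, with Id1KO libraries below all WT libraries. Erythroid markers were likewise lowest in Tet2KO, but highest in Id1KO. The 8 markers Klf1, Hba-a1, Hbb-bs, Alas2, Epor, Car1, Slc4a1 and Ermap, none of them at 0, summed to 741 to 776 CPM in the WT libraries, 411 to 416 in those of Tet2KO, 817 to 827 in those of Id1KO and 711 to 723 in those of dKO. Of the 8, 7 fell in Tet2KO against WT (87.5%, against 32.8% of all genes), while 7 rose in dKO against Tet2KO (87.5% against 26.4%). In such bulk samples fewer cells of a type and less RNA per cell cannot be told apart, and the part of erythroid cells in these values was not tested.

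Samhd1 and Oas1a, of the same role, rose, and Oas2 fell. SAMHD1, which breaks down deoxynucleotides, stood at 63.1, 61.7 and 60.8 CPM in the WT libraries, 77, 71.3 and 74.3 in those of Tet2KO, 55.4, 54.6 and 58.4 in those of Id1KO and 69.9, 73.2 and 72.5 in those of dKO. The 6 libraries of Tet2KO and dKO were all above the 6 of WT and Id1KO. Its log2 fold change was 0.26 ± 0.04 (adjusted p = 2.72e-05) in Tet2KO against WT, 0.36 ± 0.04 (adjusted p = 1.57e-06) in dKO against Id1KO and 0.22 ± 0.04 (adjusted p = 0.00045) in dKO against WT, and it was -0.14 ± 0.04 (adjusted p = 0.0198) in Id1KO against WT, a call lost in 4 of 12 leave-one-out fits, with an adjusted p up to 0.083 without Id1KO replicate 1. With the counts of similar genes added (at least 95% identity over at least 100 bp), the values turned. They were 0.0239 in Id1KO against WT, -0.0141 in dKO against WT and -0.0380 in dKO against Id1KO. An unplanned setting of at least 300 bp turned none of them. Oas1a, which makes the messenger that activates RNase L, stood at 20, 21.1 and 20.5 CPM in the WT libraries, 22.2, 20.4 and 22.9 in those of Tet2KO, 22.4, 21.3 and 19.9 in those of Id1KO and 24, 26.3 and 24.5 in those of dKO, highest in dKO. It passed in dKO against WT (0.28 ± 0.06, adjusted p = 0.00241), against Tet2KO (0.19 ± 0.06, adjusted p = 0.026) and against Id1KO (0.24 ± 0.06, adjusted p = 0.00944), with the last 2 calls each lost in 2 of 12 leave-one-out fits. Oas1a shares 1861 bp of exon at 97.6% identity with Oas1g, so the split of reads between them is uncertain. Oas2 was low, at 2.64, 2.22 and 2.22 CPM in the WT libraries, 1.59, 1.37 and 1.88 in those of Tet2KO, 2.53, 2.60 and 3.03 in those of Id1KO and 2.28, 1.98 and 2.30 in those of dKO, and fell in Tet2KO against WT, at -0.54 ± 0.18 (adjusted p = 0.0266), lost in 3 of 12 leave-one-out fits, with an adjusted p up to 0.136 without Tet2KO replicate 2. Oas3 and Oasl2 passed no test.

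**Figure D4:**
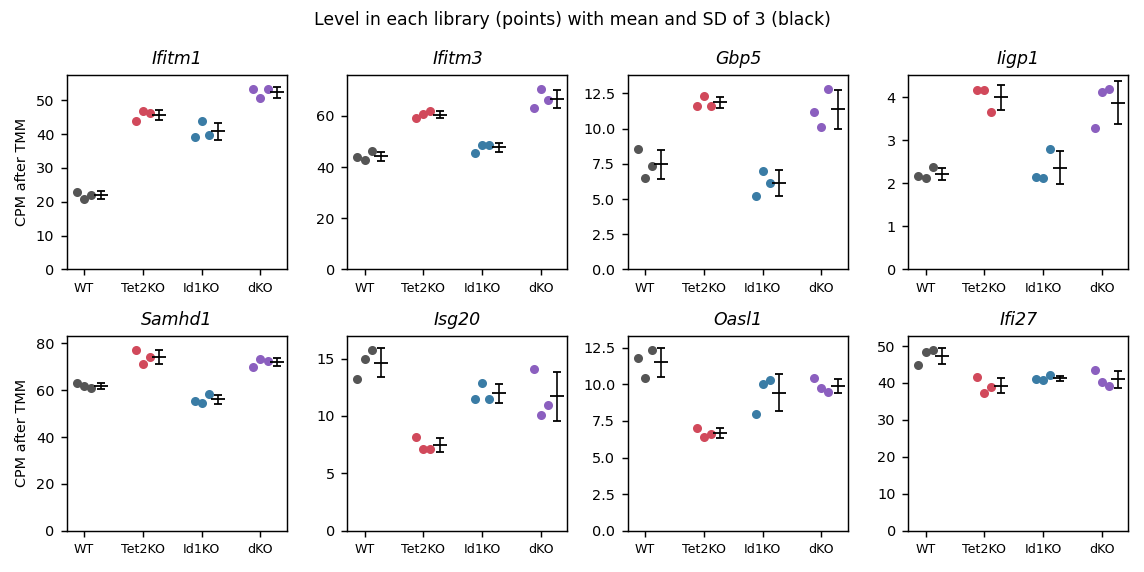
CPM in each library (points) with mean and SD of the 3 libraries of a genotype (black) for 8 members, on linear axes from 0. Ifitm3, Gbp5, Iigp1 and Samhd1 are higher in Tet2KO and dKO than in WT and Id1KO, Ifitm1 is lowest in WT, Isg20 and Oasl1 are lowest in Tet2KO, and Ifi27 is highest in WT.

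Among the IFIT proteins, IFIT1 binds the caps of foreign RNA and blocks its translation. Ifit2 stood at 31.5, 32.2 and 28.6 CPM in the WT libraries, 28.4, 27.9 and 31.2 in those of Tet2KO, 25, 24.5 and 27.2 in those of Id1KO and 25, 26.9 and 26.8 in those of dKO. It fell in Id1KO against WT (-0.27 ± 0.06, adjusted p = 0.00508) and in dKO against WT (-0.23 ± 0.06, adjusted p = 0.0119), the second lost in 2 of 12 leave-one-out fits, with an adjusted p up to 0.0667 without WT replicate 2. The libraries of both compared genotypes lay below all WT libraries. Ifit1 was at 1.69 to 2.41 CPM on average and passed no test, and Ifit3 was not tested.

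The interferon-induced transmembrane proteins, which hinder fusion of viral membranes, held the largest difference of the set. Ifitm1 (chr7:140967221-140969825 on the plus strand of GRCm38, 3 exon blocks in GENCODE M21) stood at 23, 20.8 and 22.1 CPM in the WT libraries, 44, 46.9 and 46.1 in those of Tet2KO, 39, 43.7 and 39.6 in those of Id1KO and 53.3, 50.5 and 53.2 in those of dKO. WT libraries were lowest, and each of the other genotypes lay apart from them and dKO apart from all. The log2 fold change was 1.05 ± 0.06 (adjusted p = 1.92e-11) in Tet2KO against WT (2.08-fold), 0.89 ± 0.06 (adjusted p = 8.44e-10) in Id1KO against WT and 1.25 ± 0.05 (adjusted p = 1.94e-12) in dKO against WT. The steps to dKO were smaller, 0.20 ± 0.05 (adjusted p = 0.00626) from Tet2KO and 0.36 ± 0.05 (adjusted p = 2.91e-05) from Id1KO. Ifitm1 was the 1 member that rose in Id1KO.

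Ifitm3 and Ifitm2 lie beside it on chromosome 7. Ifitm3 (chr7:141009586-141010770 on the minus strand) stood at 43.8, 42.8 and 46.1 CPM in the WT libraries, 59, 60.6 and 61.8 in those of Tet2KO, 45.6, 48.7 and 48.8 in those of Id1KO and 63.2, 70.5 and 66.1 in those of dKO. Libraries with the Tet2 label were all above those without it, with 0.45 ± 0.05 (adjusted p = 3.37e-07) in Tet2KO against WT, 0.48 ± 0.05 (adjusted p = 2.12e-07) in dKO against Id1KO and 0.59 ± 0.05 (adjusted p = 1.41e-08) in dKO against WT. The smaller difference of dKO against Tet2KO (0.14 ± 0.04, adjusted p = 0.0268) was lost in 4 of 12 leave-one-out fits, with an adjusted p up to 0.154 without dKO replicate 2. In Id1KO against WT the value was 0.11 ± 0.05 (adjusted p = 0.13). Ifitm2 (chr7:140954837-140955987 on the minus strand), the most abundant member, stood at 158, 163 and 167 CPM in the WT libraries, 183, 169.9 and 179 in those of Tet2KO, 162, 168 and 158 in those of Id1KO and 159, 153 and 168 in those of dKO. It was highest in Tet2KO, at 0.12 ± 0.04 (adjusted p = 0.0144) against WT and, as dKO against Tet2KO, -0.15 ± 0.04 (adjusted p = 0.006). The first of these calls was lost in 2 of 12 leave-one-out fits, with an adjusted p up to 0.0763 without Tet2KO replicate 1. Bst2, the tether that holds budding virus on the cell, stood at 35.6, 36.5 and 36.2 CPM in the WT libraries, 37.2, 38.1 and 34.7 in those of Tet2KO, 31.3, 33.3 and 33.5 in those of Id1KO and 39.2, 32.2 and 39.1 in those of dKO and passed no test, nor did Rtp4, a chaperone of receptors.

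Mx proteins are GTPases that trap viral cores, and viperin (Rsad2) makes a chain-ending nucleotide from the product of its neighbour kinase CMPK2. All but Cmpk2 were below 6 CPM in every library. Cmpk2 stood at 35.9, 36.1 and 34.5 CPM in the WT libraries, 33.6, 31.9 and 33.9 in those of Tet2KO, 31.1, 31.4 and 32.5 in those of Id1KO and 35.7, 37.6 and 36.3 in those of dKO. Its mean was lowest in Id1KO, whose libraries overlapped with those of Tet2KO, with -0.16 ± 0.05 (adjusted p = 0.0198) against WT (lost in 4 of 12 leave-one-out fits, with an adjusted p up to 0.0823 without Id1KO replicate 1) and 0.21 ± 0.05 (adjusted p = 0.00377) for dKO against Id1KO. In dKO against Tet2KO it gave 0.14 ± 0.05 (adjusted p = 0.0344), lost in 5 of 12 leave-one-out fits, with an adjusted p up to 0.148 without Tet2KO replicate 2. With libraries summed, the 1 Id1 effect fitted over both comparisons of that label was -0.0106. Mx1 stood at 3.32, 3.51 and 3.51 CPM in the WT libraries, 3, 4.05 and 4.20 in those of Tet2KO, 2.53, 2.60 and 3.06 in those of Id1KO and 3.97, 3.59 and 3.60 in those of dKO, with 0.45 ± 0.15 (adjusted p = 0.0448) in dKO against Id1KO, a call lost in 9 of 12 leave-one-out fits, with an adjusted p up to 0.144 without Id1KO replicate 1. Mx1 and Mx2 share 843 bp of exon at 95.3% identity, and their reads may be split between them. GENCODE M21 lists Mx2 as a polymorphic pseudogene, so its reads need not stand for a working protein. The values of Rsad2 and Mx2 in dKO against Id1KO, 0.44 ± 0.16 (adjusted p = 0.0602) and 0.49 ± 0.25 (adjusted p = 0.193), had a like size but did not pass.

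The guanylate-binding and immunity-related GTPases were the role with the most calls in dKO against Id1KO. There 6 of 8 rose and none fell (75%, against 19.3% of all genes). With Tet2KO against WT, 4 of 8 rose and none fell (50%, against 32.8% of all genes). GBP5, which also promotes inflammasome assembly, stood at 8.55, 6.5 and 7.35 CPM in the WT libraries, 11.6, 12.3 and 11.6 in those of Tet2KO, 5.22, 7.03 and 6.16 in those of Id1KO and 11.2, 10.1 and 12.8 in those of dKO. The 6 libraries with the Tet2 label lay above the 6 without it. The log2 fold change was 0.67 ± 0.11 (adjusted p = 0.000146) in Tet2KO against WT, 0.89 ± 0.12 (adjusted p = 1.97e-05) in dKO against Id1KO (1.85-fold) and 0.61 ± 0.12 (adjusted p = 0.000834) in dKO against WT. Gbp2, of the same cluster on chromosome 3, stood at 13.5, 12.2 and 13 CPM in the WT libraries, 16.5, 17.8 and 16.2 in those of Tet2KO, 12.5, 11.9 and 11.7 in those of Id1KO and 15.3, 15.3 and 14.2 in those of dKO. It gave 0.38 ± 0.07 (adjusted p = 0.000254) in Tet2KO against WT and 0.31 ± 0.07 (adjusted p = 0.00438) for dKO against Id1KO. Its rise in dKO against WT was 0.22 ± 0.07 (adjusted p = 0.0395), lost in 4 of 12 leave-one-out fits, with an adjusted p up to 0.149 without WT replicate 2. Gbp3 was more abundant, at 83.7, 88.8 and 90.1 CPM in the WT libraries, 83.2, 83.2 and 85.3 in those of Tet2KO, 79.9, 77.1 and 81.1 in those of Id1KO and 84.8, 79.8 and 81.2 in those of dKO, and fell in Id1KO against WT, at -0.14 ± 0.04 (adjusted p = 0.0104), lost in 2 of 12 leave-one-out fits, with an adjusted p up to 0.067 without WT replicate 3. Gbp7 rose in dKO against WT (0.20 ± 0.04, adjusted p = 0.00311).

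Of the immunity-related GTPases, IIGP1, which breaks the vacuoles of parasites, was low, at 2.18, 2.11 and 2.38 CPM in the WT libraries, 4.17, 4.17 and 3.66 in those of Tet2KO, 2.14, 2.13 and 2.81 in those of Id1KO and 3.30, 4.13 and 4.19 in those of dKO. All Tet2KO and dKO libraries lay above all WT and Id1KO libraries. Iigp1 gave 0.84 ± 0.15 (adjusted p = 0.000288) in Tet2KO against WT, 0.72 ± 0.16 (adjusted p = 0.00244) in dKO against Id1KO and 0.80 ± 0.16 (adjusted p = 0.000973) in dKO against WT. Irgm2, a regulator of the others, stood at 11.6, 13.3 and 11.4 CPM in the WT libraries, 14.4, 14.1 and 14.5 in those of Tet2KO, 10.4, 10.9 and 11 in those of Id1KO and 12.4, 14.1 and 13.8 in those of dKO, with 0.24 ± 0.08 (adjusted p = 0.0222) in Tet2KO against WT (lost in 4 of 12 leave-one-out fits, with an adjusted p up to 0.0824 without WT replicate 3) and 0.32 ± 0.08 (adjusted p = 0.00883) in dKO against Id1KO. Igtp stood at 19.9, 20.2 and 21.1 CPM in the WT libraries, 22, 20 and 20.8 in those of Tet2KO, 16.8, 16.3 and 18.7 in those of Id1KO and 19.7, 22.2 and 21.5 in those of dKO. It was lowest in Id1KO, at -0.24 ± 0.07 (adjusted p = 0.0171) against WT (lost in 3 of 12 leave-one-out fits, with an adjusted p up to 0.0773 without Id1KO replicate 2) and 0.29 ± 0.07 (adjusted p = 0.0037) for dKO against Id1KO. Igtp and Irgm2 share 162 bp of exon on 1 strand, so reads there cannot be assigned to 1 of them. Irgm1, a regulator linked to autophagy and needed for blood stem cell upkeep, stood at 48.3, 49.2 and 48.5 CPM in the WT libraries, 47.2, 45.7 and 48.1 in those of Tet2KO, 47.2, 43.3 and 45.4 in those of Id1KO and 53.8, 55 and 51.7 in those of dKO. The 3 dKO libraries were above all others, with 0.24 ± 0.04 (adjusted p = 0.000477) against Id1KO, 0.19 ± 0.04 (adjusted p = 0.00328) against Tet2KO and 0.14 ± 0.04 (adjusted p = 0.0297) against WT, the last lost in 4 of 12 leave-one-out fits, with an adjusted p up to 0.0944 without dKO replicate 2.

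Among the ubiquitin and ADP-ribose enzymes, 3 of 6 rose in Tet2KO against WT (50%, against 32.8% of all genes). In dKO against Id1KO 3 of 6 rose as well (50% against 19.3%). TRIM30A, a restraint on inflammatory signals, stood at 65.3, 65.6 and 65.3 CPM in the WT libraries, 73.2, 77.3 and 75.5 in those of Tet2KO, 62.2, 65.7 and 67.8 in those of Id1KO and 74.6, 77.2 and 75.4 in those of dKO. Libraries with the Tet2 label lay above those without it, with 0.20 ± 0.04 (adjusted p = 0.000239) in Tet2KO against WT, 0.22 ± 0.04 (adjusted p = 0.000287) in dKO against Id1KO and 0.21 ± 0.04 (adjusted p = 0.000334) in dKO against WT. Trim30a shares 301 bp at 97.7% identity with Trim30d. PARP14, an ADP-ribosyl transferase, stood at 54.2, 57.8 and 58 CPM in the WT libraries, 64.7, 67.6 and 67.3 in those of Tet2KO, 51.9, 48.2 and 52.3 in those of Id1KO and 58.1, 59 and 62.6 in those of dKO. It was 0.23 ± 0.04 (adjusted p = 0.000312) in Tet2KO against WT and 0.24 ± 0.04 (adjusted p = 0.000662) for dKO against Id1KO. It was lower in 2 others, at -0.16 ± 0.04 (adjusted p = 0.0188) in Id1KO against WT and -0.15 ± 0.04 (adjusted p = 0.0134) in dKO against Tet2KO, calls lost in 3 and 1 of 12 leave-one-out fits. Trim25, the ligase that helps activate RIG-I, passed in dKO against Id1KO (0.18 ± 0.05, adjusted p = 0.0148), lost in 2 of 12 leave-one-out fits, with an adjusted p up to 0.0735 without Id1KO replicate 1. Dtx3l, a ubiquitin ligase, passed in Tet2KO against WT (0.10 ± 0.04, adjusted p = 0.038) and for dKO against Tet2KO (-0.11 ± 0.04, adjusted p = 0.0296), each lost in 4 of 12 leave-one-out fits. Dtx3l overlaps 458 bp of its partner Parp9 on the opposite strand. Parp9 and Trim21 passed no test.

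The remaining members split. Ifi27, a mitochondrial protein, stood at 44.9, 48.4 and 48.8 CPM in the WT libraries, 41.5, 37.3 and 38.9 in those of Tet2KO, 41.1, 40.8 and 42 in those of Id1KO and 43.6, 40.2 and 39 in those of dKO. WT was highest, and the other 3 genotypes lay below it without overlap, at -0.27 ± 0.05 (adjusted p = 0.000408) for Tet2KO, -0.20 ± 0.05 (adjusted p = 0.0113) for Id1KO and -0.21 ± 0.05 (adjusted p = 0.00624) for dKO. The Id1KO call was lost in 2 of 12 leave-one-out fits, with an adjusted p up to 0.0639 without WT replicate 3. Ifi35 fell in Tet2KO against WT (-0.17 ± 0.06, adjusted p = 0.0214), lost in 3 of 12 leave-one-out fits, with an adjusted p up to 0.107 without WT replicate 2. SP100, a component of nuclear bodies, stood at 58.2, 58.3 and 53.2 CPM in the WT libraries, 65.6, 67 and 69.2 in those of Tet2KO, 54.5, 47.9 and 52.3 in those of Id1KO and 58.4, 58.2 and 55 in those of dKO. The Tet2KO libraries were highest and apart from all others. Its log2 fold change was 0.25 ± 0.05 (adjusted p = 0.000425) in Tet2KO against WT and -0.23 ± 0.05 (adjusted p = 0.00122) for dKO against Tet2KO. In dKO against Id1KO it was 0.15 ± 0.05 (adjusted p = 0.0389), lost in 4 of 12 leave-one-out fits, with an adjusted p up to 0.213 without Id1KO replicate 2. Xaf1, Ifi44 and Nmi passed no test.

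**Figure D5:**
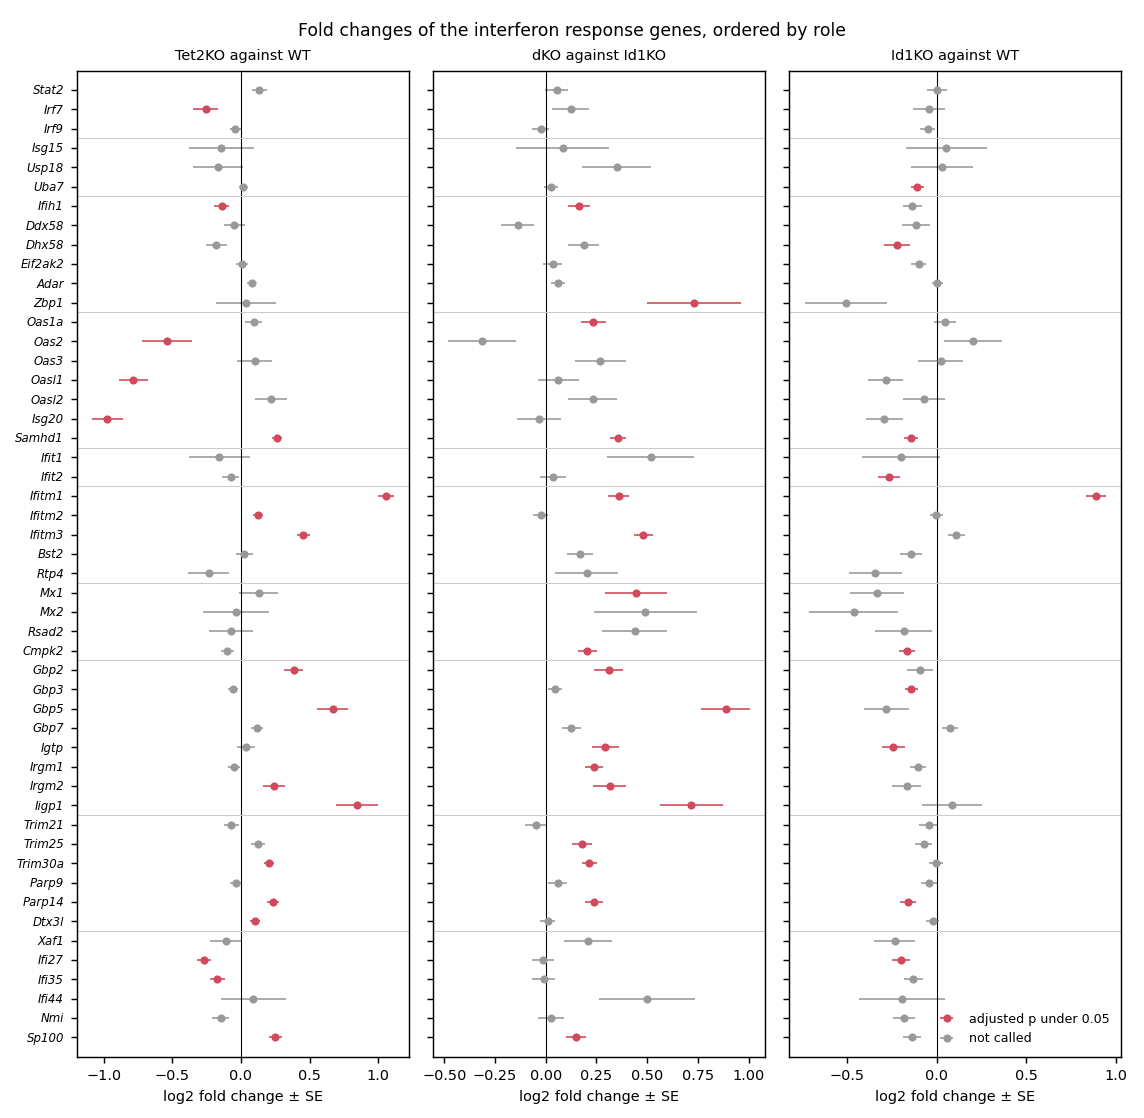
Log2 fold change with its SE for the 50 tested members, ordered by role, in 3 of the comparisons; red marks an edgeR adjusted p under 0.05. In dKO against Id1KO all 18 red points lie to the right of 0, and in Id1KO against WT the 1 red point to the right is Ifitm1.

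The interaction asks whether the step from Tet2KO to dKO differs from the step from WT to Id1KO. It was called for 8 members (16%, against 14.5% of all genes), of which 7 were positive (14%, against 7.46%) and 1 negative, with a median of 0.15. Isg20 (0.94 ± 0.16, adjusted p = 0.000428) and Oasl1 (0.85 ± 0.15, adjusted p = 0.000582) had the largest positive values. Ifih1 (0.30 ± 0.07, adjusted p = 0.00897), Dhx58 (0.37 ± 0.11, adjusted p = 0.025), Cmpk2 (0.30 ± 0.07, adjusted p = 0.00397), Irgm1 (0.29 ± 0.06, adjusted p = 0.00321) and Ifi27 (0.26 ± 0.07, adjusted p = 0.0229) were smaller. The negative value was that of Ifitm1 (-0.70 ± 0.08, adjusted p = 2.48e-06), whose value in dKO was below the sum of its 2 single-label rises on the log2 scale. Dhx58 was lost in 5 and Ifi27 in 7 of 12 leave-one-out fits.

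Other genes of the pathway, from lists set apart from the members, give the context of signalling. Of the receptors, kinases and STATs, 9 of 10 were tested. In Tet2KO against WT 4 rose and 1 fell (55.6%, against 32.8% of all genes), in Id1KO against WT 2 and 1 (33.3% against 15%), in dKO against WT 1 and 2 (33.3% against 19.2%), in dKO against Tet2KO 0 and 5 (55.6% against 26.4%), and in dKO against Id1KO 1 and 2 (33.3% against 19.3%). Ifngr1, a chain of the interferon gamma receptor, averaged 337 CPM in the WT libraries and 270.3 in those of dKO, and fell in dKO against WT, at -0.32 ± 0.03 (adjusted p = 2.67e-08). Ifngr2, the other chain, rose in Tet2KO against WT (0.23 ± 0.06, adjusted p = 0.00329), as did Ifnar1 (0.23 ± 0.03, adjusted p = 3.81e-05) and Ifnar2 (0.17 ± 0.03, adjusted p = 0.000753), the chains of the type I receptor, and Stat3 (0.19 ± 0.03, adjusted p = 3.49e-05).

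Of 6 other interferon regulatory factors tested, 3 rose and none fell in Tet2KO against WT (50%, against 32.8% of all genes). In Id1KO against WT 2 fell and none rose (33.3% against 15%), and in dKO against WT 2 rose and none fell (33.3% against 19.2%). In dKO against Tet2KO 2 fell and none rose (33.3% against 26.4%), and in dKO against Id1KO 3 rose and 1 fell (66.7% against 19.3%). Irf8, whose factor directs monocyte and dendritic fates, stood at 341, 335 and 345 CPM in the WT libraries, 349, 350.3 and 351 in those of Tet2KO, 268, 270.4 and 259 in those of Id1KO and 364, 341 and 357 in those of dKO. Its value was -0.36 ± 0.03 (adjusted p = 2.27e-08) in Id1KO against WT and 0.41 ± 0.03 (adjusted p = 2.17e-09) in dKO against Id1KO. Irf5 gave -0.36 ± 0.07 (adjusted p = 0.00111) and 0.62 ± 0.07 (adjusted p = 1.35e-06) in the same comparisons, and 0.54 ± 0.06 (adjusted p = 1.64e-06) in Tet2KO against WT. Irf2, a factor that competes for the response element, gave 0.55 ± 0.09 (adjusted p = 0.000106) in dKO against Id1KO, where Irf3 gave -0.13 ± 0.04 (adjusted p = 0.0311). Irf1 rose in Tet2KO against WT by 0.33 ± 0.04 (adjusted p = 1.03e-06).

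Of 15 sensing genes upstream of interferon, 5 rose and none fell in Tet2KO against WT (33.3%, against 32.8% of all genes), and 2 fell and none rose in Id1KO against WT (13.3% against 15%). In dKO, 1 rose against WT (6.67% against 19.2%), 2 fell against Tet2KO (13.3% against 26.4%) and 4 rose against Id1KO (26.7% against 19.3%). Tlr7 and Tlr9, endosomal sensors of RNA and DNA, were below 4 CPM in all libraries. Tlr7 gave -0.73 ± 0.20 (adjusted p = 0.0196) in Id1KO against WT and 0.97 ± 0.20 (adjusted p = 0.00177) in dKO against Id1KO, and Tlr9 -0.67 ± 0.20 (adjusted p = 0.03) and 0.69 ± 0.21 (adjusted p = 0.0225). Tmem173, which encodes STING, gave 0.26 ± 0.05 (adjusted p = 0.000201) in Tet2KO against WT, where Ikbke gave 0.23 ± 0.04 (adjusted p = 0.000233) and Ticam1 0.30 ± 0.09 (adjusted p = 0.0112). Of 6 negative regulators, Socs3, an inhibitor of receptor kinases, stood out, at 1.56, 1.91 and 2.22 CPM in the WT libraries, 3.68, 3.34 and 3.72 in those of Tet2KO, 6.15, 5.72 and 5.01 in those of Id1KO and 4.31, 4.07 and 4.25 in those of dKO. WT libraries were lowest, with 1.57 ± 0.14 (adjusted p = 2.05e-07) in Id1KO against WT. Pias1 (0.14 ± 0.05, adjusted p = 0.0316 in Tet2KO against WT) and Ptpn6 (-0.11 ± 0.03, adjusted p = 0.0142 in Id1KO against WT) were called with smaller values.

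A further list of 50 interferon-induced genes outside the members had 43 genes tested. In Tet2KO against WT 11 rose and 5 fell (37.2%, against 32.8% of all genes), in Id1KO against WT 1 and 8 (20.9% against 15%), in dKO against WT 4 and 1 (11.6% against 19.2%), in dKO against Tet2KO 3 and 9 (27.9% against 26.4%), and in dKO against Id1KO 13 and 1 (32.6% against 19.3%). Their median log2 fold change was 0.10 in Tet2KO against WT, -0.13 in Id1KO against WT and 0.15 in dKO against Id1KO. Ifi211 (0.66 ± 0.14, adjusted p = 0.0016), Ifi204 (0.77 ± 0.22, adjusted p = 0.0153) and Ifi27l2a (0.74 ± 0.18, adjusted p = 0.0063) rose in dKO against Id1KO, Oas1g (0.77 ± 0.18, adjusted p = 0.00369) in dKO against Tet2KO, and Ifi207 (1.22 ± 0.38, adjusted p = 0.0182) in Tet2KO against WT.

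Markers of monocytes and macrophages had the highest sums in Tet2KO and the lowest in Id1KO. The 8 markers Csf1r, Ly6c2, Ccr2, Fcgr1, Adgre1, C1qa, C1qb and Vcam1, none of them at 0, summed to 851 to 890 CPM in the WT libraries, 1129.5 to 1168 in those of Tet2KO, 802 to 818 in those of Id1KO and 996 to 1024 in those of dKO. Of these, 4 rose and 1 fell in Tet2KO against WT (62.5%, against 32.8% of all genes), with the same counts in dKO against Id1KO (62.5% against 19.3%). In Id1KO against WT 1 rose and 3 fell (50% against 15%), and in dKO against WT 3 rose and 1 fell (50% against 19.2%). In dKO against Tet2KO, where more members rose than fell, 2 markers rose and 4 fell (75% against 26.4%). The macrophage markers C1qa and C1qb had at most 17 counts in a library. Late neutrophil markers (Ly6g, S100a8, S100a9, Ltf, Mmp8, Camp and Retnlg, with Ly6g at up to 2 counts) summed to 59.3 to 64.9 CPM in the WT libraries, 80.3 to 85.1 in those of Tet2KO, 62.8 to 66.6 in those of Id1KO and 80.5 to 90.3 in those of dKO. Of 7 markers of plasmacytoid dendritic cells, which make much type I interferon, Klk1 was at 0 and Tcf4 gave nearly all of the sum. That sum was 71.5 to 77.1 CPM for WT, 81.3 to 88.2 for Tet2KO, 66.7 to 72.9 for Id1KO and 75.9 to 82.0 for dKO. Of the 2 tested markers 1 was higher in Tet2KO against WT (50%, against 32.8% of all genes). Likewise 1 was higher when dKO was set against Id1KO (50% against 19.3%). Markers of T and NK cells, low throughout, summed to 0.919 to 1.4 CPM for WT, 1.49 to 1.96 for Tet2KO, 0.715 to 1.09 for Id1KO and 1.71 to 1.92 for dKO. The 6 progenitor markers, none at 0, summed to 11647 to 11701 CPM for WT, 12803 to 13045 for Tet2KO, 9738 to 10488 for Id1KO and 9649 to 10421 for dKO. Of these 6, 4 rose and 2 fell in Tet2KO against WT (100%, against 32.8% of all genes). In Id1KO against WT 1 rose and 4 fell (83.3% against 15%), and in dKO against WT 5 fell (83.3% against 19.2%). The part of all these cells in the members' values was not tested.

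Response element cores were set beside the calls as a description. In dKO against Id1KO, 10 of the 24 tested members with a core rose and none fell, and 4 of the 15 without one rose and none fell. Of all genes 10.6% were higher and 8.7% lower there. In Tet2KO against WT, 6 rose and 1 fell with a core, and 4 rose and 4 fell without, while 16.6% of all genes rose and 16.2% fell. A difference between members with and without a core was not tested. Members without a match in the window included Ifitm1, Oasl1, Isg20, Samhd1, Irf7, Irf9, Cmpk2 and Sp100. The 3 overlapping cores of Isg15 stood at a gene that passed no test, and the single core of Gbp5, shown above within its 216 bases, at one that rose in 3 comparisons.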

How the data were processed

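Gene-level estimated counts for 12 libraries were deposited by the authors, who used STAR and RSEM with mm10, per the submitters' processing notes; versions and the strand setting are not given in the sources used here. RNA was extracted with RNeasy Micro and prepared as stranded total RNA with Ribo-Zero Plus, per the labels' protocols. Estimated counts were rounded. Genes passing filterByExpr (minimum count 10) were fitted with edgeR 4.0.16 (R 4.3.3, quasi-likelihood, TMM, 1 mean per genotype over all 12 libraries), with Benjamini-Hochberg adjustment over all 14346 genes at 0.05. Values after ± beside a log2 fold change are SE, and "lost" means an adjusted p of 0.05 or more. The members and lists were chosen with earlier results of these data known. Members named are, per comparison, up to 12 called with the largest change and a mean of at least 1 CPM, plus the 3 most abundant per kb; pathway genes named are up to 5 called per list. Others named were chosen after their values were seen. The alternatives were other scalings, DESeq2 1.42.0, other filters and thresholds, glmTreat, summed libraries, shared exons and leaving out each library. Shared exons were found with GENCODE M21 and blast 2.17.0. Within a genotype all 12 library pairs differed by more than sampling noise. Some genes of the lists are not reported here.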

Additional observations from a re-analysis of the deposited data

Results flagged for a closer look

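For 8 members the change from Tet2KO to dKO differed from the change from WT to Id1KO by edgeR's test of the interaction, in log2 units. The difference was 0.94 for Isg20 and 0.85 for Oasl1. It was 0.37 for Dhx58, 0.30 for Ifih1, 0.30 for Cmpk2, 0.29 for Irgm1 and 0.26 for Ifi27. It was -0.70 for Ifitm1.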

How the results depend on the processing

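Counts of members called are given in this order: Tet2KO, Id1KO and dKO, each against WT, then dKO against the single knockouts Tet2KO and Id1KO, then the interaction, where edgeR gave 19, 10, 14, 15, 18 and 8. Leaving out 1 library gave 13 to 22, 5 to 10, 10 to 15, 9 to 15, 13 to 20 and 6 to 10. The 5 came without WT replicate 2, WT replicate 3 or Id1KO replicate 2, and the 9 without dKO replicate 3. Members' shares in these fits ran 26% to 44%, 10% to 20%, 20% to 30%, 18% to 30%, 26% to 40% and 12% to 20%. Those of all genes ran 26.2% to 34%, 10.4% to 16.4%, 13.7% to 19.1%, 20.3% to 26.4%, 14.5% to 19.5% and 10.9% to 14.8%. A threshold of 0.01 gave 12, 2, 9 and 6 in the first 4 (24%, 4%, 18% and 12% of members, against 21.8%, 7.56%, 10.9% and 15.9% of all genes). Against a 1.2-fold change, glmTreat gave 6, 1, 4, 1, 3 and 3 (12%, 2%, 8%, 2%, 6% and 6% of members). All genes were called there at 5.36%, 0.976%, 3.32%, 2.33%, 3.35% and 1.65%. The 1 in Id1KO against WT, Ifitm1, was higher, where most edgeR calls were lower. DESeq2 gave 4 in the second (8%, against 11.2% of all genes with an adjusted p) and 7 in the fourth (14% against 21.2%); in the first its 13 were 26% against 25.5%. With libraries summed and additive effects, the Tet2 label gave 2 (4%, against 1.62% of all genes) and the Id1 label 0 (against 0.0488%; 4 at an unadjusted p under 0.05); dKO against WT and the interaction have no value there. That setting fits 1 effect per label over both comparisons of the label, so it gives no value for a single comparison. Its Tet2 effect for Ifih1 was 0.0151, where Tet2KO against WT gave -0.14 and dKO against Id1KO 0.16. Its Id1 effect for Cmpk2 was -0.0106, where dKO against Tet2KO gave 0.14 and Id1KO against WT -0.16. Adding similar genes, with at least 95% identity over at least 100 bp, turned Ddx58 in dKO against WT (0.0230). It also turned Samhd1 in Id1KO against WT (0.0239), and in dKO against WT (-0.0141) and Id1KO (-0.0380). An unplanned setting of at least 300 bp turned none of these. The cause of the turns with similar genes added was not tested. With the replicate number as a block the counts were 19, 9, 14, 13, 17 and 8 (38%, 18%, 28%, 26%, 34% and 16% of members). All genes were called there at 31.5%, 13.6%, 17.9%, 25%, 18% and 13%. Same-numbered libraries correlated at -0.134 to 0.127, and 6 of 12 correlated best with their own number. Whether they share more than a number cannot be told from these values. The response element share was 62.5%, or 55% with a further A. Depth limits members under 5 CPM.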
